A study of Mus musculus with 6 samples.

Results

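The interleukin-1 family cytokines were followed through 6 skin tumours of male mice, 3 labelled P2ry6+/+ (labelled wild-type) and 3 labelled P2ry6-/- (labelled knockout). The members were taken by name: Il1a, Il1b, Il1rn, Il18, Il33, Il36a, Il36b, Il36g and Il36rn, which make 9 of the 19751 features tested on 1-colour Agilent arrays. The array annotation writes Il36rn, Il36a, Il36b and Il36g as Il1f5, Il1f6, Il1f8 and Il1f9. In both groups tumours were raised on shaved back skin with 195 nmol of the mutagen DMBA (7,12-dimethylbenz[a]anthracene) and then 16 nmol of the tumour promoter TPA, given 2 times a week until week 22. Each genotype had 12 mice in the carcinogenesis experiment, and the labels do not say that the numbered tumours came from separate mice, so every p-value measures only the spread between these samples. Strain, age and the part of P2ry6 that was removed are not given in the sources used here. P2ry6 encodes a receptor for uridine diphosphate, and the comparison asks how tumours labelled as having or lacking it differ.

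The family consists of secreted cytokines that act through receptors of the interleukin-1 receptor family, the adaptor MyD88 and the transcription factor NF-kB. In skin, keratinocytes hold interleukin-1 alpha, interleukin-33 and the interleukin-36 cytokines. Interleukin-1 beta comes largely from myeloid cells and needs to be cut, as does interleukin-18, mainly by caspase-1 in inflammasomes. Il1rn and Il36rn encode antagonists that occupy the interleukin-1 and interleukin-36 receptors without starting a signal.

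P2ry6 showed no drop in the labelled knockout group, with a log2 difference of 0.41 (SE 0.20, limma adjusted p = 0.450) for its brighter probe and 0.54 for the other. By the brighter probe every labelled knockout array was above every labelled wild-type array, which held for 12.1% of all features. The other probe overlapped. These values do not verify the genotypes, so the labels are used here as given and every direction follows them. One slide and 1 scan held all arrays, and 54.2% to 59.4% of their non-control spots stood well above background. Labelled wild-type arrays were brighter, with a 75th percentile of 322 to 368 units against 277.1 to 299.6 units for labelled knockout arrays. Of the 3 slide rows, only row 2 held both genotypes, in labelled wild-type replicate 3 and labelled knockout replicate 1. The bulk samples also differed in genes of other tissue. The 9 measured skeletal muscle genes all had lower means in tumours labelled knockout (median log2 difference -5.79). So did the 9 measured hair follicle genes (-5.11), the 8 sebaceous gland genes (-2.55) and 5 of 7 adipocyte genes (list median -3.62). In limma 2 muscle and 2 adipocyte genes passed an adjusted p of 0.05, beside 0.162% of all features. The hair follicle and sebaceous lists had 0. Every labelled knockout array was below every labelled wild-type array for 9 muscle, 3 hair follicle, 7 sebaceous and 4 adipocyte genes. That held for 7.36% of all features. The 14 keratinocyte genes, by contrast, had a median difference of 0.06, and their mean level lay between 6.73 and 6.94 on all 6 arrays. Single genes of that list moved in both directions, 8 higher and 6 lower, with differences from -1.17 to 0.97. In such samples fewer cells of a type and less RNA per cell cannot be told apart.

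Most of the family was higher in tumours labelled knockout, but no member passed the threshold. Of the 9 members, 8 had a higher mean there and 1, Il1rn, a lower one, with a median log2 difference of 0.73; over all features 52.1% were higher, with a median of 0.017. After adjustment over all features, 0 of 9 members passed 0.05 in limma (adjusted p from 0.229 to 0.761), beside 0.162% of all features (32 of 19751). The members with an unadjusted limma p under 0.05 were 3 of 9, Il18, Il36g and Il36rn, beside 13.2% of all features in either direction and 7.85% in the higher direction. In these same 3 members the genotypes did not overlap, with every labelled knockout array above every labelled wild-type array, which held for 12.1% of all features; with median centring Il18 overlapped. All 16 probes of the family were well above background on all 6 arrays, and 13 of them had a higher labelled knockout mean. With the slide row as a block, which rests on the single pair of tumours in row 2, the same 8 members were higher and 0 passed (limma adjusted p from 0.425 to 0.879). Labelled wild-type replicate 3, in that pair, was the lowest of all 6 arrays for these 8 members. Their direction within row 2 was thus fixed in advance and adds no separate evidence. In that pair the difference was 0.22 for Il1a, 1.07 for Il1b, -0.75 for Il1rn, 1.12 for Il18, 1.17 for Il33, 1.38 for Il36a, 1.12 for Il36b, 0.98 for Il36g and 1.22 for Il36rn.

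**Figure D1:**
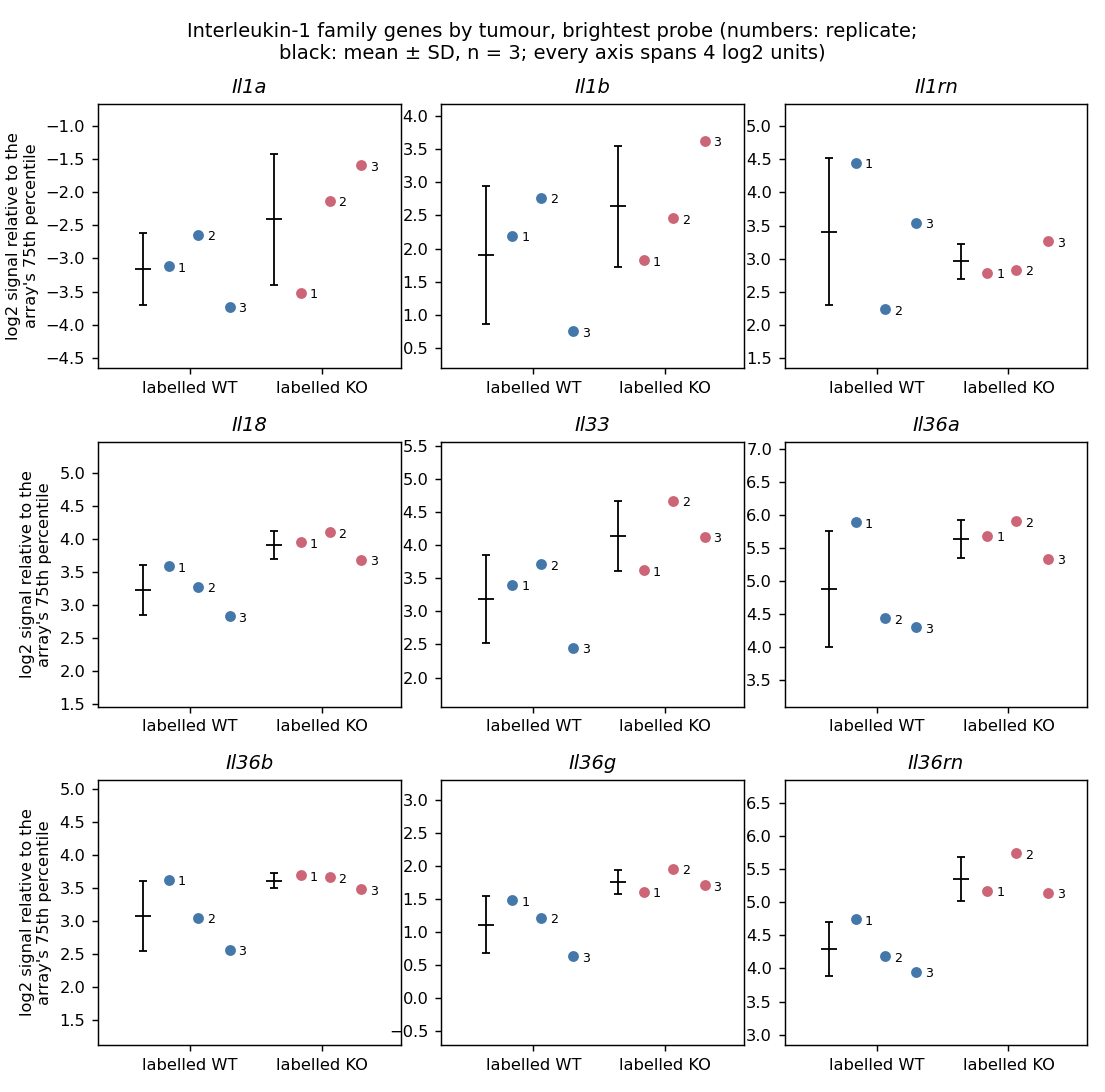
Log2 signal of the brightest probe of each member, relative to the array's 75th percentile, in 3 labelled wild-type (blue) and 3 labelled knockout (red) tumours; numbers mark the replicate and black bars the mean ± SD (n = 3). For Il18, Il36g and Il36rn the genotypes do not overlap, while Il1a, Il1b and Il1rn spread widely within a genotype.

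The interleukin-36 genes lie in 1 cluster on chromosome 2. By the brightest probes in the main comparison, the antagonist Il36rn had the largest difference of all 9 members. It stayed first under normexp correction, quantile scaling and median centring, but not under every alternative. Averaging each gene's probes put Il33 (1.04) above Il36rn (0.96). Array weights put Il1a (1.09), Il1b (1.001) and Il33 (0.99) above Il36rn (0.87). Blocking on the slide row put Il36a (1.38) above Il36rn (1.22). Values are log2 signals in which 0 is the array's 75th percentile. Il36rn, read by a probe at chr2:24137461-24137520 (mm9, the build of all probe coordinates), stood at 4.74, 4.18 and 3.95 in the labelled wild-type tumours, given in the order of replicates 1 to 3 here and below, and at 5.18, 5.74 and 5.14 in the labelled knockout tumours. The lowest labelled knockout tumour was above the highest labelled wild-type tumour. The means were 4.29 ± 0.41 and 5.35 ± 0.33 (SD, n = 3 each), a difference of 1.06 (SE 0.27, 2.09-fold; limma adjusted p = 0.229). The other Il36rn probe, at chr2:24138877-24138936, gave a difference of 0.87 and also did not overlap. Without any one tumour the Il36rn difference stayed between 0.87 and 1.29.

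The 3 interleukin-36 agonists had mean differences of 0.53 to 0.76. Il36g, at chr2:24048444-24048503, measured 1.48, 1.22 and 0.63 in the labelled wild-type tumours and 1.61, 1.96 and 1.71 in the labelled knockout tumours, so the genotypes did not overlap. Its difference was 0.65 (SE 0.25, limma adjusted p = 0.344). Without labelled wild-type replicate 3, the lowest of the 6, it was 0.41. Il36b, at chr2:24015639-24015698, measured 3.62, 3.05 and 2.57 against 3.69, 3.66 and 3.48, a difference of 0.53 (SE 0.27, limma adjusted p = 0.471). Here labelled wild-type replicate 1 lay among the labelled knockout tumours, and the other probe of the gene gave 0.65. Il36a, at chr2:24081127-24081186, measured 5.89, 4.44 and 4.30 against 5.68, 5.90 and 5.33. Labelled wild-type replicate 1 was again level with the labelled knockout tumours, and the difference of 0.76 (SE 0.43, limma adjusted p = 0.511) became 1.27 without it; the other probe gave 0.80. Without labelled wild-type replicate 3 the differences of Il36a and Il36b were 0.48 and 0.27, without labelled wild-type replicate 1 that of Il36b was 0.80, and with array weights both came to 0.29.

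**Figure D2:**
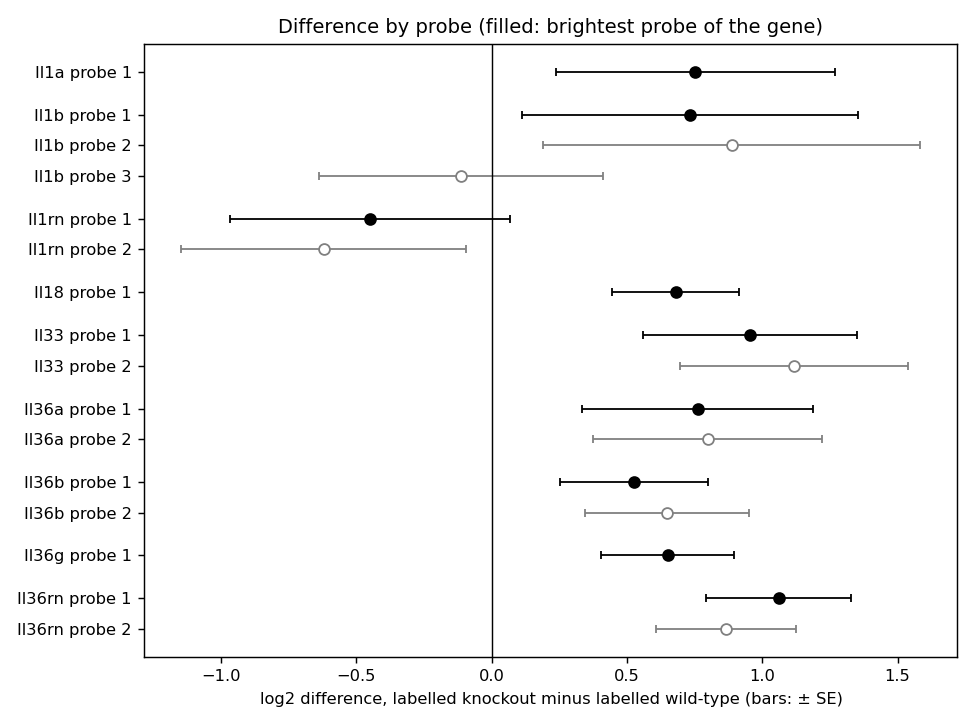
Log2 difference between labelled knockout and labelled wild-type tumours for each of the 16 probes of the 9 members, with bars of ± SE from limma; filled points are the brightest probe of each gene. The 13 probes to the right of 0 include both Il36rn probes (1.06 and 0.87), and the 3 to the left are both Il1rn probes (-0.45 and -0.62) and 1 of 3 Il1b probes (-0.11).

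The genes of the interleukin-1 receptor ligands overlapped between the genotypes and spread widely within them. Il1b was measured by 3 probes, and the brightest, at chr2:129190347-129190406, read 2.19, 2.77 and 0.75 in the labelled wild-type tumours and 1.82, 2.46 and 3.63 in the labelled knockout tumours. The extremes were labelled wild-type replicate 3 and labelled knockout replicate 3, and the other 4 tumours were interleaved. The means of 1.90 ± 1.04 and 2.64 ± 0.92 (SD, n = 3 each) differed by 0.73 (SE 0.63, 95% confidence interval -0.78 to 2.25, limma adjusted p = 0.670). The difference was 0.16 without labelled wild-type replicate 3, 0.24 without labelled knockout replicate 3, 1.17 without labelled wild-type replicate 2 and 1.14 without labelled knockout replicate 1. The second probe, at chr2:129190880-129190939, kept the order of the extremes: -0.59, 0.90 and -1.76 against -0.22, 0.09 and 1.34, a difference of 0.89. The third, at chr2:129195465-129195524 and assigned through an Ensembl transcript, read -3.01, -1.75 and -3.61 against -3.56, -2.91 and -2.24. Its difference was -0.11 (SE 0.52), so its sign differed from the other probes but was not settled. This probe was dim, with signals of 25.3 to 109.6 units and a mean level at the 11.3th percentile of the features tested.

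The second probes of Il1b, Il1rn and Il33 are shown here because they give another reading of each gene. In the Il1rn probe the capitals mark the letters TAG, in frame 1; the Il33 probe spans 2268 bases of the genome, so it crosses the junction of exons.
Il1b second probe: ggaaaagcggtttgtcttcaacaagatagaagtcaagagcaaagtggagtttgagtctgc
Il1rn second probe: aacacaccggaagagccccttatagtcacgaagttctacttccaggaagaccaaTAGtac
Il33 second probe: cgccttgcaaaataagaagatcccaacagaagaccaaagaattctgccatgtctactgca

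Il1a, the gene of interleukin-1 alpha, was near the bottom of the measured range. Its single probe, at chr2:129125994-129126053, had signals of 24.2 to 92.1 units, and its mean level ranked at the 12.1th percentile of the features tested. The log2 values were -3.12, -2.64 and -3.73 in the labelled wild-type tumours and -3.52, -2.12 and -1.59 in the labelled knockout tumours. The genotypes overlapped, with labelled knockout replicate 1 the second lowest of all, and the difference of 0.75 (SE 0.52) gave a limma adjusted p of 0.590. It was 0.34 without labelled knockout replicate 3, 0.47 without labelled wild-type replicate 3 or with normexp background correction, and 1.31 without labelled knockout replicate 1.

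Il1rn, the antagonist of the interleukin-1 receptor, was the only member with a lower mean in the labelled knockout tumours. Its brighter probe, at chr2:24206125-24206184, read 4.45, 2.24 and 3.54 in the labelled wild-type tumours and 2.79, 2.83 and 3.26 in the labelled knockout tumours. The labelled knockout values all fell inside the labelled wild-type range, so the genotypes differed in spread (SD 1.11 against 0.26, n = 3 each, not tested) as well as in their means. The difference was -0.45 (SE 0.53, 95% confidence interval -1.71 to 0.81, limma adjusted p = 0.761). It reached -1.03 without labelled wild-type replicate 2 and -0.84 with array weights, and turned to 0.07 without labelled wild-type replicate 1, and blocking on the column of the slide gave -0.08. The second probe, at chr2:24205094-24205153, ordered the labelled wild-type tumours in the same way, at 0.95, -1.33 and -0.07, against -0.65, -1.003 and -0.66, a difference of -0.62.

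Il18 and Il33, whose products act on receptors of their own, were both higher in the labelled knockout tumours without passing the threshold. Il18, at chr9:50389886-50389942, read 3.59, 3.28 and 2.83 in the labelled wild-type tumours and 3.95, 4.10 and 3.69 in the labelled knockout tumours, with no overlap. The means of 3.23 ± 0.38 and 3.91 ± 0.21 (SD, n = 3 each) differed by 0.68 (SE 0.23, limma adjusted p = 0.310). Il33, which encodes a nuclear cytokine released from damaged epithelium, read 3.40, 3.71 and 2.45 against 3.62, 4.67 and 4.13 at chr19:30035101-30035160. Labelled wild-type replicate 2 lay just above the lowest labelled knockout tumour, and the difference of 0.95 (SE 0.40) had a limma adjusted p of 0.378. It was 0.58 without labelled wild-type replicate 3. The Il33 probe across the exon junction, at chr19:30024240-30026507, read -0.69, 0.42 and -0.93 against 0.13, 1.25 and 0.77, a difference of 1.12 with the same single overlap.

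The members did not share 1 profile over the tumours, although a few arrays recurred at the ends. Labelled wild-type replicate 3 was the lowest of the 6 arrays for 8 of 9 members, and labelled wild-type replicate 2 was the lowest for Il1rn. Labelled knockout replicate 2 was the highest for 5 members, labelled knockout replicate 3 for Il1a and Il1b, labelled knockout replicate 1 for Il36b and labelled wild-type replicate 1 for Il1rn. Of the markers of other cells, some lists were also lowest in labelled wild-type replicate 3 and others not. The mean level of 7 fibroblast genes was 2.74 there, against 3.57 to 4.79 on the other arrays, and that of 12 monocyte and macrophage genes was 0.23, against 0.76 to 1.01. The mean of 2 B cell genes was highest there, at -1.58, and those of endothelial, mast and T cell genes were lower on at least 1 other array. The 7 measured neutrophil genes averaged -0.87 in that tumour, -0.88 in labelled knockout replicate 1 and 0.15 in labelled knockout replicate 3, the tumour with the highest Il1a and Il1b. The 7 measured cornified keratinocyte genes were lowest in labelled wild-type replicate 3, at 4.62 on average, against 4.96 and 5.08 in the other labelled wild-type tumours and 5.48 to 5.67 in the labelled knockout tumours. All 7 had a higher labelled knockout mean, 4 of them without overlap, beside 12.1% of all features in that direction, and 0 past the threshold (median difference 0.53). The part of these cells in the cytokine differences was not tested.

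**Figure D3:**
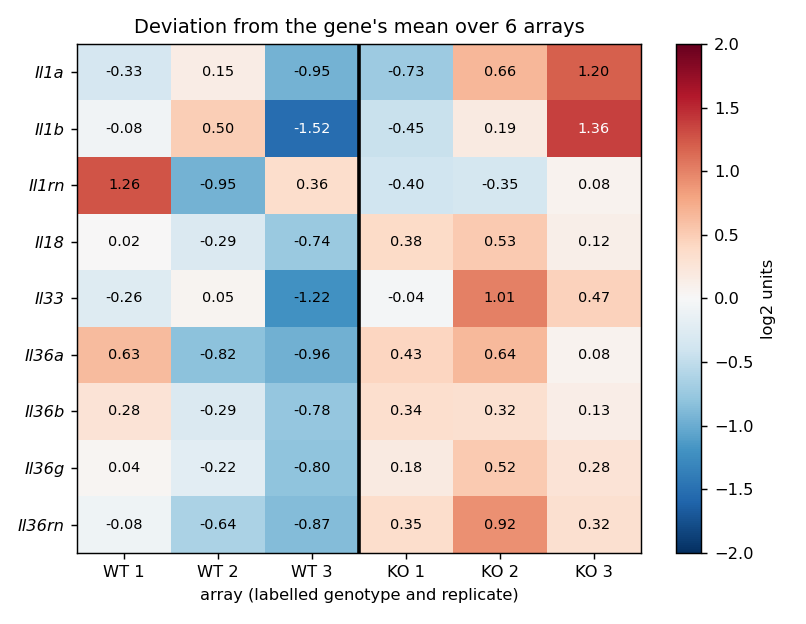
Log2 deviation of each member from its own mean over the 6 arrays, with labelled wild-type tumours left of the line and labelled knockout tumours right of it; red is above and blue below the mean. Labelled wild-type replicate 3 is the lowest array for every member but Il1rn, whose highest value is in labelled wild-type replicate 1 (1.26).

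The balance of agonist and antagonist was compared within each array as the log2 ratio of their probes. The level of such a ratio depends on the probes, so only its change between genotypes was read, by exact permutation tests, which cannot give a p below 0.1 with 3 tumours against 3. The Il36b to Il36rn ratio was -1.12, -1.13 and -1.39 in the labelled wild-type tumours and -1.49, -2.08 and -1.67 in the labelled knockout tumours. It was lower in every labelled knockout tumour, by 0.53 on average (two-sided exact permutation p = 0.1, adjusted p = 0.3 over 6 ratios). The Il36g to Il36rn ratio behaved in the same way, at -3.27, -2.97 and -3.32 against -3.57, -3.78 and -3.44, a difference of -0.41 (exact permutation p = 0.1, adjusted p = 0.3). Both ratios used the brightest probe of each gene. With the other Il36rn probe, whose own difference was 0.87 against 1.06, the genotypes overlapped in both ratios. The Il36a to Il36rn ratio overlapped between the genotypes (difference -0.30, exact permutation p = 0.5), as labelled knockout replicate 1 lay above labelled wild-type replicates 2 and 3; without labelled wild-type replicate 1 the difference was -0.02. Within slide row 2 the ratios of Il36b, Il36g and Il36a to Il36rn differed by -0.10, -0.25 and 0.16.

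For the interleukin-1 receptor the ratios went the other way but spread widely. The Il1b to Il1rn ratio was -2.25, 0.53 and -2.79 in the labelled wild-type tumours and -0.97, -0.38 and 0.37 in the labelled knockout tumours. Labelled wild-type replicate 2 had the highest ratio of all 6 tumours and the other labelled wild-type tumours the lowest, and the difference of 1.18 was within this spread (exact permutation p = 0.4, adjusted p = 0.5). It was 2.20 without labelled wild-type replicate 2 and 0.54 without labelled wild-type replicate 3. The Il1a to Il1rn ratio differed by 1.20 (exact permutation p = 0.3, adjusted p = 0.5), by 2.05 without labelled wild-type replicate 2 and by 0.70 without labelled wild-type replicate 1. In slide row 2 the pair of tumours differed by 1.83 and 0.97 in these ratios. The ratio of Il18 to Il18bp, the gene of the secreted protein that binds interleukin-18, differed by 0.26 (exact permutation p = 0.5), and by 0.05 to 0.53 with 1 tumour left out.

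**Figure D4:**
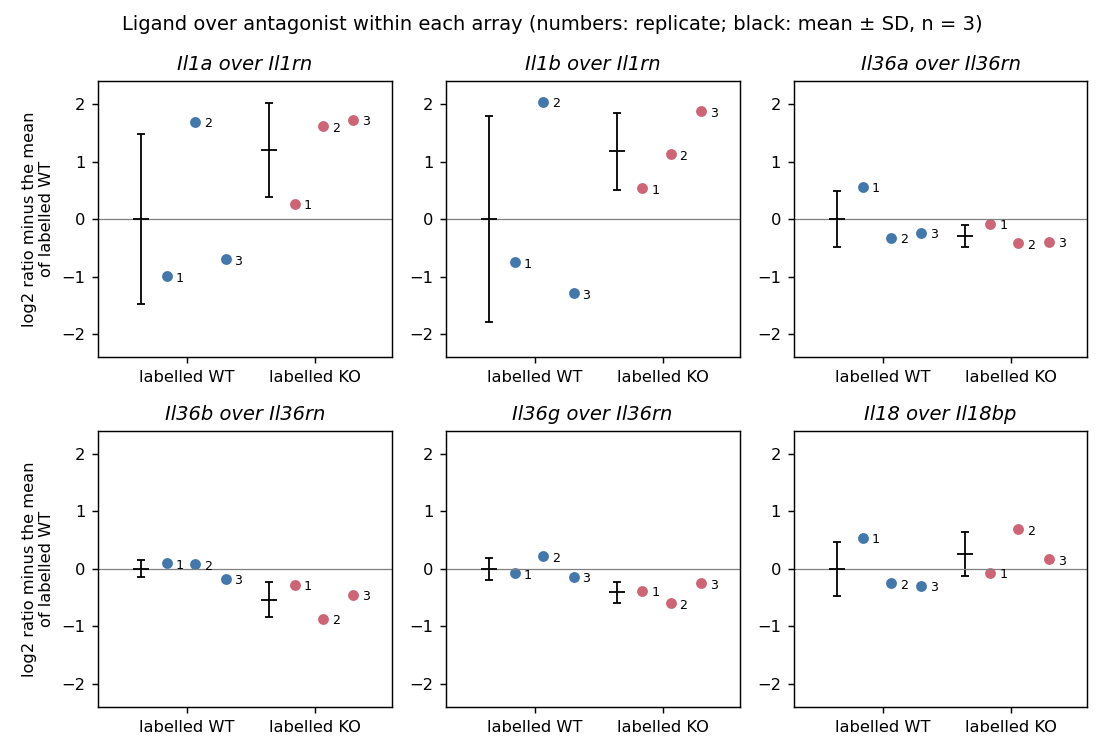
Log2 ratio of each ligand to its antagonist or binding protein on the same array, with the labelled wild-type mean set to 0; numbers mark the replicate and black bars the mean ± SD (n = 3). With the brightest probes shown, the ratios of Il36b and Il36g to Il36rn are lower in all 3 labelled knockout tumours, by 0.53 and 0.41 on average. With the other Il36rn probe both overlap.

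Further genes of the pathway were taken from 7 lists, of which 82 of 94 genes were measured and 0 passed the threshold over all features in limma. The labelled knockout mean was above the labelled wild-type mean for 53 and below it for 29, the median log2 difference was 0.14, and 11 had an unadjusted p under 0.05, which is a share near the 13.2% of all features. Genotypes did not overlap for 9 genes in the higher direction, beside 12.1% of all features, and for 1 in the lower, beside 7.36%, the adhesion gene Vcam1 (difference -0.45, limma adjusted p = 0.481; it was picked out once its values were known). Without labelled wild-type replicate 2 one gene passed, S100a8, with a difference of 1.39 (limma adjusted p = 0.043).

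Of the 7 measured receptor genes, 5 were higher and 2 lower, with a median of 0.38. Il18r1, the ligand-binding chain for interleukin-18, read -2.14, -1.53 and -2.29 in the labelled wild-type tumours and -1.43, -1.08 and -0.85 in the labelled knockout tumours, which differed by 0.87 (SE 0.26, limma adjusted p = 0.267). Il1rap, the accessory chain shared by the receptors for interleukin-1, interleukin-33 and interleukin-36, read 1.03, 1.35 and 0.94 against 1.42, 1.71 and 1.71, a difference of 0.51 (SE 0.18, limma adjusted p = 0.318). Neither overlapped between genotypes. Il1rl2, the interleukin-36 receptor, was also higher in every labelled knockout tumour, by 0.31 on average (limma adjusted p = 0.401), but its other probe gave -0.13. Il1r1, the signalling receptor for interleukin-1, had a difference of -0.54 with overlap (limma adjusted p = 0.472). The remaining ligand, Il1f10 (interleukin-38), and the decoy Il18bp differed by -0.30 and 0.42, both with overlap.

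The 11 measured genes of inflammasomes and release had a median difference of 0.12, 7 higher and 4 lower. The largest difference of the named genes was in Aim2, a sensor of cytosolic DNA, which read 0.91, -0.58 and 1.35 in the labelled wild-type tumours and -1.03, -1.33 and -0.47 in the labelled knockout tumours, for means that differed by -1.50 (SE 0.51, limma adjusted p = 0.306). Labelled wild-type replicate 2 fell among the labelled knockout tumours, and the other Aim2 probe gave -0.63. Gsdmd, whose product forms the pores that release interleukin-1 beta, differed by 0.59, Pycard, the inflammasome adaptor, by 0.59 and Nlrp10 by 0.48, all with overlap (limma adjusted p from 0.459 to 0.600); the other Pycard probe gave 0.085. Of the 5 measured genes of extracellular proteases that cut the ligands, 2 were higher and 3 lower. Gzmb (granzyme B) and Ctss (cathepsin S) differed by 0.79 and 0.28, and the mast cell protease Mcpt4 and neutrophil elastase Elane by -0.28 and -0.07, all with overlap. The Gzmb probe was dim, not well above background in 1 labelled wild-type tumour, and its difference was 0.34 with normexp background correction.

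Among the 19 genes of signal adaptors and kinases, 13 were higher and 6 lower, with a median of 0.08. Nfkb1, which encodes the p105 precursor of NF-kB, read 3.41, 3.75 and 3.35 in the labelled wild-type tumours and 3.80, 4.27 and 4.37 in the labelled knockout tumours, a difference of 0.65 without overlap (SE 0.21, limma adjusted p = 0.298). Tollip, Rel and Irak4 differed by 0.44, 0.36 and 0.23, all with overlap. By their brightest probes the 9 negative feedback genes were all higher in mean, with a median of 0.23, and most differences were small. Cyld was lower with median centring, and the other Nfkbib probe gave -0.094. Otud7b, a deubiquitinase that restrains NF-kB, had the smallest p, with a difference of 0.78 without overlap (SE 0.24, limma adjusted p = 0.280). Tnip1, Bcl3 and Nfkbia differed by 0.26, 0.27 and 0.16 with overlap, and Bcl3 by -0.02 without labelled wild-type replicate 3.

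The 29 measured target genes in skin were nearly evenly split, 16 higher and 13 lower, with a median of 0.28 and a range of -2.03 to 1.84. Genotypes did not overlap for 4 of them in the higher direction, beside 12.1% of all features, and for 1 in the lower, beside 7.36%. The 4 in the higher direction were also the 4 with the smallest p. S100a8 and S100a9 encode the 2 chains of calprotectin. S100a8 read 6.86, 7.92 and 6.89 in the labelled wild-type tumours and 8.14, 8.44 and 8.20 in the labelled knockout tumours, a difference of 1.04 (SE 0.31), and S100a9 differed by 0.63 (SE 0.19), both with a limma adjusted p of 0.267. Tslp, an epithelial cytokine, read 1.50, 0.16 and 1.26 against 1.84, 2.69 and 1.95, a difference of 1.18 (SE 0.40, limma adjusted p = 0.304). Csf1, the macrophage growth factor, differed by 0.82 (SE 0.29, limma adjusted p = 0.317).

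**Figure D5:**
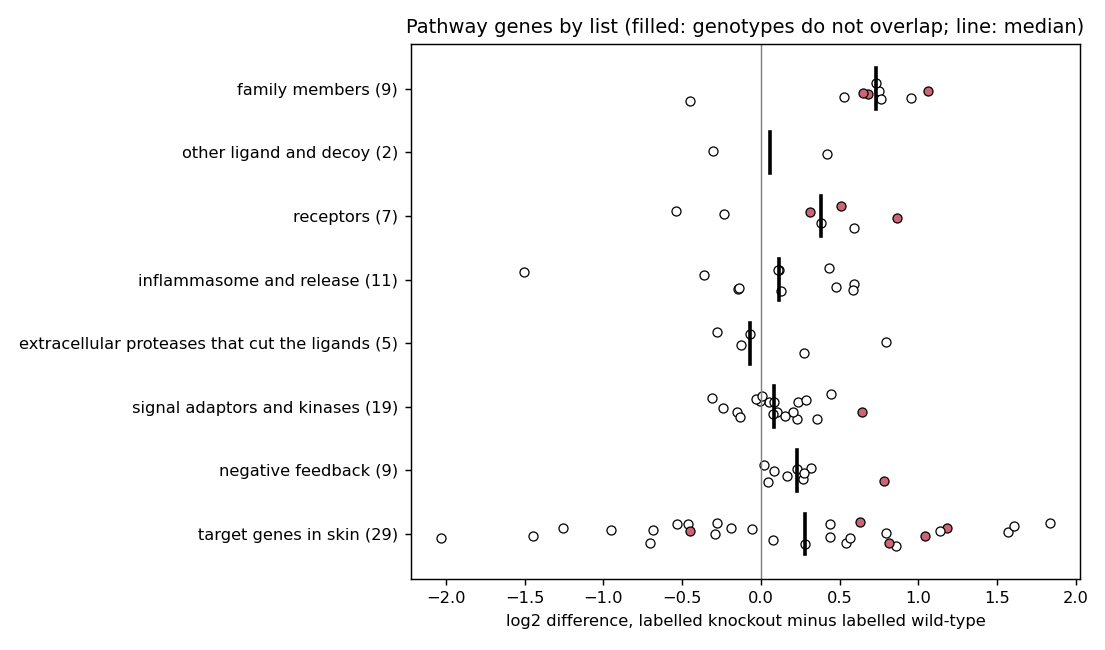
Log2 difference between labelled knockout and labelled wild-type tumours for the 9 members and each measured gene of the 7 pathway lists; filled points are genes whose genotypes do not overlap and the black line is the median of a list. The members' median is 0.73, that of the receptors 0.38 and that of the proteases -0.07.

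For the 3 members with the widest range over the tumours, the named genes with the closest profile were found by the root-mean-square difference of log2 values over 6 arrays, each gene centred on its own mean. The closest to Il1b were Slc2a3, a glucose transporter gene, at 0.136, and the myeloid C-type lectin genes Clec4e and Clec4d at 0.151 and 0.190. Being chosen for their likeness to Il1b, the 3 shared its extremes, lowest in labelled wild-type replicate 3 and highest in labelled knockout replicate 3. Clec4e, for example, read -1.20, -0.52 and -2.71 against -1.93, -1.09 and 0.03. The closest to Il33 were Sprr2d, a cornified envelope gene, at 0.084, then S1pr3 at 0.113 and Phactr1 at 0.117. The closest to Il1rn were Gria3, Srgap2 and Fdxacb1, at 0.127, 0.131 and 0.156.

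The interleukin-36 genes and Il1rn share a locus on chromosome 2, and Il1a and Il1b another. The nearest measured genes outside the first were Hnmt and Psd4. Hnmt, which encodes a histamine-inactivating enzyme, read -2.75, -2.43 and -3.23 in the labelled wild-type tumours and -1.78, -0.89 and -1.43 in the labelled knockout tumours, a difference of 1.44 without overlap (SE 0.30, limma adjusted p = 0.186). Psd4 differed by 0.30, also without overlap (limma adjusted p = 0.432). Beside Il1a and Il1b, Ckap2l and Sirpa differed by -0.02 and 0.27, both with overlap.

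TPA acts through protein kinase C on AP-1, and the promoters of the members were searched for its site in RefSeq windows of 300 bases, 250 before and 50 after the annotated start (GRCm38.p6). Windows were found for 8 of 9 members, 12 in all. The letters TGANTCA, read on both strands, were in 3 of the 12 windows, 1 each of Il36b, Il1rn and Il1a, and in 7.81% of all 32851 windows. Their surroundings are shown to set the 3 sites side by side, with the matched letters in capitals, starting at positions -236, -141 and -12 from the start.
Il36b promoter, chr2:24152922-24152982, plus strand: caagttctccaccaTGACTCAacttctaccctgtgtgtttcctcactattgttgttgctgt
Il1rn promoter, chr2:24336679-24336765, plus strand: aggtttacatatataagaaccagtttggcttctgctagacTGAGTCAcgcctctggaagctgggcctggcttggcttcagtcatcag
Il1a promoter, chr2:129309953-129310024, minus strand: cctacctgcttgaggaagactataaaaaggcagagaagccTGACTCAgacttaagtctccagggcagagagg

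The members with this match did not form a group by their values: Il36b and Il1a differed by 0.53 and 0.75 and Il1rn by -0.45. The letters of an NF-kB site, GGG and TTCC with any 3 bases between them, were in all 3 windows of Il1rn and in none of the other members' windows, against 5.56% of all windows. Of the Il1rn windows 2 overlap and hold the same match, so the 3 windows contain 2 distinct sites. Those of a C/EBP site, TTGCNNAA, were in 2 of the 12 windows, 1 of Il36rn and 1 of Il33, against 10.8% of all windows. Matches of different motifs did not overlap, and a match is a description of the letters only.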

How the data were processed

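RNA of 6 tumours was labelled with Cy3 and hybridised to 1-colour arrays. Per the file headers, the authors deposited linear spot intensity; the submitters' processing notes name Agilent Feature Extraction 10.7.1.1. A value table for the whole series, also deposited, holds log2 values with a median of 4.97 in each column, by a tool not named here.

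Processed signals were put on the log2 scale and centred by subtracting the 75th percentile of an array's non-control probes. Spots with outlier flags were left out, and 29720 of 56605 probes were kept because all arrays of a genotype showed them well above background. The brightest probe per gene gave 19751 features. Genotypes were compared with limma 3.58.1 in R 4.3.3, two-sided, with Benjamini-Hochberg adjustment over all features and a threshold of 0.05; the data.table package (1.17.8) read the files, and the fit was tested on simulated data. A positive difference means a higher value in the labelled knockout tumours. RefSeq's table of GRCm38.p6 served for names and neighbours. The number of arrays limits the precision.

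The text names every probe of the members, P2ry6, any gene of a pathway list past the threshold and otherwise the 4 with the smallest p, the closest profiles, and the genes next to each locus. The members and lists were chosen with earlier results of these data known. Alternatives changed the background correction (normexp, offset 50), the scaling (quantiles or the median), the filter (none, or above background everywhere), the choice of probe (their mean, or each alone), the variance model (trend and robust), weights per array, the source (the authors' log2 table) and the block (replicate number, column of the slide or, added after seeing the data, its row), or left out 1 tumour.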

Additional observations from a re-analysis of the deposited data

How the results depend on the processing

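In all 19 alternatives 0 of 9 members passed the threshold, and of 171 member differences under them 1 changed sign, that of Il1rn (-1.03 to 0.072 with 1 tumour left out, positive without labelled wild-type replicate 1). The lowest adjusted p of a member was 0.170, for Il36rn with array weights. The number of features called, 32, was 10 under normexp, 18 unfiltered, 5 when a probe had to be above background everywhere, 89 under array weights, 21 when blocking on the column of the slide, 0 in limma when blocking on its row (2048 at an unadjusted p under 0.05; chosen after seeing the data), and 10 to 120 with 1 tumour left out (120 without labelled wild-type replicate 2). Of those called, 31.2% were higher in labelled knockout tumours, against 50% with normexp, 60% of those above background everywhere and 20% with the replicate block, and 7.69% to 54.2% with 1 tumour left out. With no filter the median over all features was 0.187. With 1 tumour left out, the members without overlap were 3 to 5 and the pathway genes called 0 to 1; with median centring the members without overlap were 2, Il36g and Il36rn. Differences changed sign in Rel (-0.25 with the row block), Elane (0.0058 with normexp, 0.072 with the row block), Mcpt4 (0.044 with array weights, and -0.57 to 0.17 with 1 tumour left out, positive without labelled wild-type replicate 2 or labelled knockout replicate 1), Il1f10 (-0.67 to 0.022 with 1 tumour left out, positive without labelled wild-type replicate 2, and 0.378 with the row block) and Bcl3 (-0.019 to 0.50, negative without labelled wild-type replicate 3). The cause of these changes was not tested. The replicate number as a block called 5 features; the deviations of same-numbered tumours correlated at 0.063, 0.256 and 0.144, and 5 of 6 tumours correlated best with their own number; as 1 correlation was not over 0.1, the numbers were not taken as pairs.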
